A study of Mus musculus with 11 samples.

Results

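The 10 genes described here encode transcription factors known from the stem cells of the hair follicle bulge: Tcf7l1, Tcf7l2, Lhx2, Barx2, Sox9, Tbx1, Nfatc1, Foxc1, Runx1 and Vdr. They were picked by symbol from the 55537 entries of the count files, with earlier results of these data known, and all 10 were found. All 10 passed the low-count filter and were among the 20307 genes tested. They were followed across 11 RNA-seq libraries of epidermal cells sorted from the back skin of mice.

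All mice were males of the strain CD4Cre R26-tdT on C57Bl6/N, which means that every group carried the Cre transgene and the reporter. Cre is driven by the promoter of Cd4, a gene of T cells, and tdT (tdTomato) marks cells that have expressed Cre and their descendants. Cells freed with thermolysin were sorted by FACS as CD49f+CD34+ and divided by Sca-1 and tdT. The 4 groups were Sca-1neg tdT+ (3 libraries), Sca-1neg tdT- (3), Sca-1+ tdT+ (3) and Sca-1+ tdT- (2). The mice were 29 weeks old in replicate 1 and 32 weeks old in replicates 2 and 3. Each library pooled 2 mice, and the labels do not say whether groups with the same replicate number came from the same mice. The p-values therefore measure the spread between these pools.

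The bulge is the niche of the resting hair follicle that holds its long-lived stem cells, which carry CD34 and CD49f on their surface and little Sca-1. Tcf7l1 (also called Tcf3), Lhx2, Sox9, Nfatc1, Tbx1 and Foxc1 are known regulators of the identity, maintenance or quiescence of these cells, whereas Runx1 and Vdr are better known for the start of hair growth and the hair cycle. In bulk RNA, fewer cells of a type and less RNA per cell cannot be told apart.

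Total counts ran from 17409131 to 46542177 per library. The entry read as the tdT tracer (CPM, counts per 1000000 counted reads) ranged over 224 to 307 CPM in Sca-1+ tdT+ and stood at 133 and 252 CPM in replicates 1 and 3 of Sca-1neg tdT+. The tdT- libraries held 2.54 to 4.89 CPM, and so low a value, 2.05 CPM, was also found for the library labelled Sca-1neg tdT+ replicate 2. That library therefore goes against its label. Cd34 was at 468 to 1130 CPM in the Sca-1neg libraries, in Sca-1+ tdT- at 320 and 383 CPM, but at 22.3 to 35.7 CPM in Sca-1+ tdT+, although CD34 was part of the gate for all 4 groups. Ly6a, which encodes Sca-1, was at 2.46 to 59.2 CPM in the Sca-1neg libraries and at 153 to 294 CPM in the Sca-1+ libraries. The summed level of 8 basal keratinocyte markers was 18413 to 40702 CPM in all libraries, with none of the 8 at 0. The 12 liver markers summed to 23492, 11196 and 13988 CPM respectively for replicate 1 of Sca-1neg tdT+, the library without the tracer and replicate 2 of Sca-1neg tdT-, against at most 88.9 CPM elsewhere.

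All 10 factors had their lowest group mean in Sca-1+ tdT+, and 8 of the 10 had their highest in Sca-1neg tdT-. The depth of the low point differed between them. Levels below are CPM scaled by TMM, the default library scaling of edgeR, and log2 fold changes carry an approximate standard error (SE). Each p given as adjusted is from edgeR's quasi-likelihood test, corrected after Benjamini and Hochberg for the 20307 genes, and 0.05 is the threshold.

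**Figure D1:**
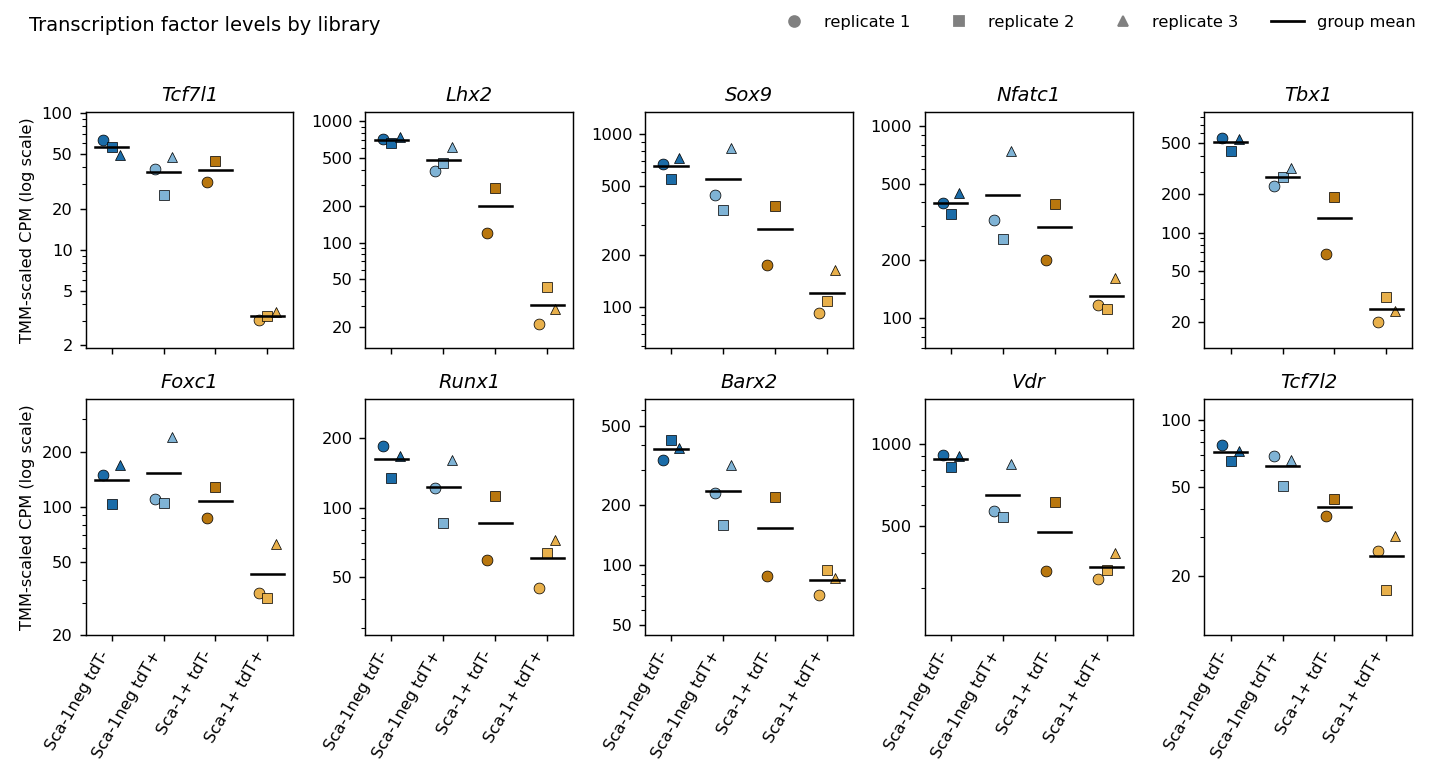
Level of each of the 10 factors in each library (CPM on a log axis), by sorted group. Points are libraries and bars are group means. The Sca-1+ tdT+ libraries are the lowest group for every factor, with Tcf7l1 at 3.04 to 3.51 CPM and Vdr at 322 to 400 CPM.

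Windows of up to 250 bases upstream of the transcription start were taken from RefSeq (GRCm38.p6) for 7 of the 10 genes, with 11 windows in all. Nfatc1 was left out of this search, and no window was given for Sox9 and Barx2. Motifs were searched in the whole windows, and bases inside annotated exons were taken off the sequences shown. The windows of 4 genes are shown: Lhx2 and Tbx1, whose profiles over the libraries were among the 3 closest pairs of members, and Foxc1 and Tcf7l2, which hold all but 1 of the motif matches. Lower case is sequence without a match and capitals mark a match to 1 of the 8 short motifs searched on either strand. They are shown 5′ to 3′ on the strand of the gene, in the order Lhx2 (chr2:38339031-38339280, plus strand), Tbx1 (chr16:18590672-18590921, minus strand), Foxc1 (chr13:31806396-31806632, plus strand) and Tcf7l2 (chr19:55741560-55741809, plus strand).
Lhx2: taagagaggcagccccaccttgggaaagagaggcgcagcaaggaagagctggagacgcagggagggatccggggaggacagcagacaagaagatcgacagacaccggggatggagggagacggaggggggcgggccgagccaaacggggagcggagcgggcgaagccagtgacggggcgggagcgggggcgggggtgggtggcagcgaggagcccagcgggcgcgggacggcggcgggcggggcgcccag
Tbx1: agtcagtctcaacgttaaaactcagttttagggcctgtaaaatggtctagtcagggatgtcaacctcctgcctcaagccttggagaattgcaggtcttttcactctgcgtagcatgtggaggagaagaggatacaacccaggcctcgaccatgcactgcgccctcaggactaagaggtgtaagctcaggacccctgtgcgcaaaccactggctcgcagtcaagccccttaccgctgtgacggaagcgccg
Foxc1: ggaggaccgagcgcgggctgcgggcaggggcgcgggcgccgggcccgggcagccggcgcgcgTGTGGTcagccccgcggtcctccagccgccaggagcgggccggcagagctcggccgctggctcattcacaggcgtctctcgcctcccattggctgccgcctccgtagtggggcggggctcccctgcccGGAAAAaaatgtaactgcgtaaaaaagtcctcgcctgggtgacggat
Tcf7l2: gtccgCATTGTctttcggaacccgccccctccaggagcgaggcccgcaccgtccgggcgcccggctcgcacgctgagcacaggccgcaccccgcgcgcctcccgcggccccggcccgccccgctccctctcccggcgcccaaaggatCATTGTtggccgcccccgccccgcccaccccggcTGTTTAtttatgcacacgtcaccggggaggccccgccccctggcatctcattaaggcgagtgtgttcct

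The motifs were, for TCF/LEF, CTTTGAT or CTTTGAA; for SOX, ACAATG; for RUNX, TGTGGT; for homeodomain factors, TAATTA; for FOX, TGTTTA; for T-box, GGTGTGA; for NFAT, GGAAAA; and for the half-site of Vdr, AGGTCA. Foxc1 held a RUNX match that begins at base -188 from the start site and an NFAT match at -60. Tcf7l2 held SOX matches at -245 and -103, both read on the other strand, and a FOX match at -69. The window of a second start of Lhx2 begins inside an annotated exon and is not shown. It held an NFAT match at -139. The other windows held none. Of the 32851 RefSeq windows of 250 bases, 14% held the RUNX motif, 20.4% the NFAT motif, 10.7% the SOX motif and 12% the FOX motif. The TCF/LEF motif was found in 7.48% of windows, TAATTA in 4.84%, the T-box motif in 3.33% and the half-site of Vdr in 14%, and none of the 11 windows held any of these. A match describes letters only.

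Tcf7l1 (ENSMUSG00000055799, mm10 chromosome 6, bases 72626378 to 72789254, minus strand) encodes a repressor of Wnt target genes that keeps follicle stem cells in an undifferentiated state. It was at 63.2, 56.5 and 49.5 CPM in Sca-1neg tdT- replicates 1 to 3 and at 39.1, 25 and 47.4 CPM in Sca-1neg tdT+. In Sca-1+ tdT- it was at 31.5 and 44.8 CPM. In Sca-1+ tdT+ it was at 3.04, 3.29 and 3.51 CPM, from 114, 58 and 68 counts. The Sca-1+ tdT+ libraries were each below every library of the other groups, whereas Sca-1+ tdT- and Sca-1neg tdT+ overlapped. Within Sca-1+ cells, Tcf7l1 fell by 3.54 on the log2 scale (SE 0.27, 11.6-fold) in tdT+ against tdT- cells, with an adjusted p of 2.25e-04. Within tdT+ cells it was lower in Sca-1+ than in Sca-1neg by a log2 fold change of -3.50 (SE 0.26, adjusted p = 6.02e-05). Within tdT- cells the Sca-1+ against Sca-1neg value was -0.56 (SE 0.26, adjusted p = 0.257, and 0.0419 with voom), and the groups did not overlap. The difference between the tdT effects in the 2 Sca-1 gates was -2.94 (SE 0.35, adjusted p = 0.00559), and it was -3.16, with an adjusted p of 0.00216, when the library labelled Sca-1neg tdT+ replicate 2 was left out. Among the 10 factors only Tcf7l1 passed this test of the difference.

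Tcf7l2 (ENSMUSG00000024985, chromosome 19, bases 55741820 to 55933654, plus strand) encodes a second TCF factor that binds beta-catenin. Its levels were 77.6, 65.8 and 72.6 CPM in Sca-1neg tdT-, 69.2, 50.6 and 66.2 CPM in Sca-1neg tdT+, 37.3 and 44.4 CPM in Sca-1+ tdT-, and finally 26, 17.3 and 30.2 CPM in Sca-1+ tdT+. All Sca-1+ libraries were below all Sca-1neg libraries, and the 2 Sca-1+ groups did not overlap. It was lower in Sca-1+ than in Sca-1neg among tdT+ cells (log2 fold change -1.34, SE 0.21, adjusted p = 0.00241). Within tdT- cells the value was -0.82 (SE 0.24, adjusted p = 0.0699), and for tdT+ against tdT- within Sca-1+ cells it was -0.74 (SE 0.23, adjusted p = 0.143). With DESeq2 both passed the threshold (adjusted p = 0.0235 and 0.0316), and the former also did with voom (adjusted p = 0.00315), with only those 2 groups (adjusted p = 0.0272) and without Sca-1+ tdT+ replicate 2 (adjusted p = 0.0348). Per kilobase of exon, Tcf7l1 was at 14.4 and Tcf7l2 at 8.20 CPM per kb in Sca-1neg tdT-, and the order was turned in Sca-1+ tdT+, with 0.836 and 2.79 CPM per kb. This change of order was not tested.

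Lhx2 (ENSMUSG00000000247, chromosome 2, bases 38339281 to 38369733, plus strand) encodes a LIM-homeodomain factor that maintains bulge stem cells. Its levels were 715, 662 and 743 CPM in Sca-1neg tdT-, 387, 452 and 612 CPM in Sca-1neg tdT+, 120 and 280 CPM in Sca-1+ tdT-, and finally 21.5, 42.7 and 28.5 CPM in Sca-1+ tdT+. No group overlapped with the next lower one, so that the 4 groups formed 4 separate steps. Within Sca-1+ cells Lhx2 was 6.47-fold lower in tdT+ than in tdT- cells (log2 fold change -2.69, SE 0.36, adjusted p = 0.00337), and -2.00 without Sca-1+ tdT- replicate 2. Within tdT+ cells it was 15.6-fold lower in Sca-1+ than in Sca-1neg (log2 fold change -3.97, SE 0.36, adjusted p = 1.54e-04). Within tdT- cells the fold was 3.54 (log2 fold change -1.82, SE 0.39, adjusted p = 0.0222). That call was lost without Sca-1+ tdT- replicate 1 (-1.35, adjusted p = 0.178), without Sca-1neg tdT- replicate 1 (adjusted p = 0.0562) and without Sca-1neg tdT- replicate 3 (adjusted p = 0.075). It was also lost with no low-count filter (adjusted p = 0.0608) and in the 32-week libraries alone (-1.33, adjusted p = 0.349). Leaving out Sca-1+ tdT- replicate 2 gave -2.51.

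Tbx1 (ENSMUSG00000009097, chromosome 16, bases 18580979 to 18590671, minus strand) encodes a T-box factor that sustains self-renewal of bulge stem cells. It followed the same order as Lhx2. Its levels were 548, 439 and 541 CPM in Sca-1neg tdT-, 232, 275 and 318 CPM in Sca-1neg tdT+, 68.0 and 190 CPM in Sca-1+ tdT-, and finally 19.8, 31.1 and 24.5 CPM in Sca-1+ tdT+. Again no group overlapped with the next. Tbx1 was 5.13-fold lower in tdT+ than in tdT- cells within Sca-1+ (log2 fold change -2.36, SE 0.36, adjusted p = 0.00626), and -1.49 without Sca-1+ tdT- replicate 2. It was 11-fold lower in Sca-1+ than in Sca-1neg among tdT+ cells (log2 fold change -3.45, SE 0.35, adjusted p = 2.63e-04). Among tdT- cells it was 3.96-fold lower (log2 fold change -1.98, SE 0.38, adjusted p = 0.0156). This last call was lost without Sca-1+ tdT- replicate 1 (-1.44, adjusted p = 0.0719), without Sca-1neg tdT- replicate 3 (adjusted p = 0.0593), in a fit of only those 2 groups (adjusted p = 0.0564) and in the 32-week libraries alone (-1.38, adjusted p = 0.248). The value was -2.86 without Sca-1+ tdT- replicate 2.

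Barx2 (ENSMUSG00000032033, chromosome 9, bases 31846044 to 31913462, minus strand), a homeobox factor of the follicle, had a shallower profile. It was at 337, 423 and 388 CPM in Sca-1neg tdT-, 231, 159 and 316 CPM in Sca-1neg tdT+, 88.4 and 219 CPM in Sca-1+ tdT-, and finally 71.3, 95.1 and 86.6 CPM in Sca-1+ tdT+. Sca-1neg tdT- stood above all other libraries, and each of the other neighbouring groups overlapped. Among tdT+ cells Barx2 was 2.79-fold lower in Sca-1+ than in Sca-1neg (log2 fold change -1.48, SE 0.33, adjusted p = 0.0148), a call lost without Sca-1+ tdT+ replicate 1 (adjusted p = 0.0592) or replicate 3 (adjusted p = 0.0515). Among tdT- cells the value was -1.32 (SE 0.37, adjusted p = 0.0681). It passed the threshold with DESeq2 (adjusted p = 0.00657), with voom (adjusted p = 0.00691) and without Sca-1neg tdT+ replicate 3 (adjusted p = 0.0471). It also passed when the library labelled Sca-1neg tdT+ replicate 2 was left out (adjusted p = 0.0496), and moved to -2.07 (adjusted p = 0.0208) without Sca-1+ tdT- replicate 2.

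Sox9 (ENSMUSG00000000567, chromosome 11, bases 112782224 to 112787760, plus strand) encodes a factor needed to set up and keep the stem cell pool. Its levels were 668, 551 and 730 CPM in Sca-1neg tdT-, 442, 364 and 833 CPM in Sca-1neg tdT+, 176 and 386 CPM in Sca-1+ tdT-, and finally 92.6, 108 and 163 CPM in Sca-1+ tdT+. The Sca-1+ tdT+ libraries were the lowest without overlap, and replicate 3 of Sca-1neg tdT+ was the highest of all 11. Sox9 was 4.51-fold lower in Sca-1+ than in Sca-1neg among tdT+ cells (log2 fold change -2.17, SE 0.38, adjusted p = 0.00534). The value was -2.80 (adjusted p = 0.00153) when the 3 libraries with liver transcripts were left out, and the call was lost in the 32-week libraries alone (adjusted p = 0.0713). Within Sca-1+ cells the tdT+ against tdT- value was -1.21 (SE 0.40, adjusted p = 0.184), and among tdT- cells the Sca-1 value was -1.21 (SE 0.43, adjusted p = 0.136). The former passed the threshold with DESeq2 (adjusted p = 0.0253) and without the 3 libraries with liver transcripts (adjusted p = 0.0464), the latter with DESeq2 (adjusted p = 0.029) and voom (adjusted p = 0.00783).

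Nfatc1 (ENSMUSG00000033016) and Foxc1 (ENSMUSG00000050295, chromosome 13, bases 31806633 to 31812476, plus strand) encode factors that hold bulge stem cells in quiescence, Nfatc1 downstream of calcineurin and BMP signalling. Nfatc1 was at 396, 347 and 446 CPM in Sca-1neg tdT-, 323, 257 and 739 CPM in Sca-1neg tdT+, 201 and 393 CPM in Sca-1+ tdT-, and finally 117, 111 and 162 CPM in Sca-1+ tdT+. Foxc1 was at 149, 104 and 169 CPM in Sca-1neg tdT-, 110, 105 and 241 CPM in Sca-1neg tdT+, 87.0 and 129 CPM in Sca-1+ tdT-, and finally 34, 31.9 and 62.9 CPM in Sca-1+ tdT+. For both genes replicate 3 of Sca-1neg tdT+ was the highest library, the Sca-1+ tdT+ libraries were the lowest without overlap, and the 3 other groups overlapped. That replicate also had the highest sum of 8 upper follicle markers (7886 CPM, against 2760 to 4652 CPM in the other libraries). The part of this in the values was not tested. The sum is led by Krt17, with group means of 1154 to 3116 CPM. Krt17 is itself among the 3 genes nearest in profile to Nfatc1. Among tdT+ cells, Nfatc1 was lower in Sca-1+ than in Sca-1neg by a log2 fold change of -1.76 (SE 0.40, adjusted p = 0.0172), and by -1.16 (adjusted p = 0.0262) without that replicate. The same comparison gave -1.83 for Foxc1 (SE 0.39, adjusted p = 0.0152). Without the 3 libraries with liver transcripts the values were -2.53 for Nfatc1 (adjusted p = 9.56e-04) and -2.51 for Foxc1 (adjusted p = 0.00153). Both calls were lost without Sca-1+ tdT+ replicate 1 (adjusted p = 0.0635 and 0.0578) or replicate 2 (adjusted p = 0.063 and 0.0556), with no low-count filter (adjusted p = 0.0676 and 0.0509) and in the 32-week libraries alone (adjusted p = 0.177 and 0.208). Among tdT- cells the Sca-1 values were -0.42 (SE 0.43) for Nfatc1 and -0.38 (SE 0.43) for Foxc1, with adjusted p of 0.642 and 0.669, the smallest differences of the 10 factors in that comparison. Within Sca-1+ cells the tdT+ against tdT- values were -1.19 (SE 0.42, adjusted p = 0.213) and -1.33 (SE 0.42, adjusted p = 0.165). Without Sca-1neg tdT+ replicate 3 they passed the threshold, at -1.20 (adjusted p = 0.0431) and -1.33 (adjusted p = 0.0488). Both also passed with DESeq2 (adjusted p = 0.0352 and 0.0155), with only those 2 groups (adjusted p = 0.0495 and 0.0445) and without the 3 libraries with liver transcripts (adjusted p = 0.02 and 0.0173), and Foxc1 with voom (adjusted p = 0.0307).

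Runx1 (ENSMUSG00000022952, chromosome 16, bases 92601466 to 92826149, minus strand) acts in the entry of the follicle into growth, and Vdr (ENSMUSG00000022479, chromosome 15, bases 97854425 to 97910630, minus strand), the vitamin D receptor, is needed for hair cycling. Runx1 was at 184, 134 and 167 CPM in Sca-1neg tdT-, 122, 85.6 and 161 CPM in Sca-1neg tdT+, 59.2 and 112 CPM in Sca-1+ tdT-, and finally 44.7, 63.3 and 72.5 CPM in Sca-1+ tdT+. Vdr was at 905, 821 and 900 CPM in Sca-1neg tdT-, 567, 540 and 843 CPM in Sca-1neg tdT+, 346 and 612 CPM in Sca-1+ tdT-, and finally 322, 349 and 400 CPM in Sca-1+ tdT+. Every group overlapped with the next for both genes, and these had the smallest folds of the 10 in the Sca-1 comparison of tdT+ cells. Among tdT+ cells Runx1 was 2.04-fold lower in Sca-1+ than in Sca-1neg (log2 fold change -1.03, SE 0.29, adjusted p = 0.0429), and Vdr 1.82-fold lower (log2 fold change -0.86, SE 0.23, adjusted p = 0.0345). Each of these 2 calls was lost on leaving out any of 7 libraries, namely replicates 1 and 3 of Sca-1neg tdT+, replicates 1 and 3 of Sca-1neg tdT- and each Sca-1+ tdT+ library, with adjusted p from 0.0589 to 0.13 for Runx1 and from 0.0512 to 0.107 for Vdr. Both were lost with voom (adjusted p = 0.0899 and 0.0616) and in the 32-week libraries alone (adjusted p = 0.276 and 0.205). Within Sca-1+ cells the tdT+ against tdT- values were -0.51 (SE 0.32, adjusted p = 0.54) and -0.42 (SE 0.26, adjusted p = 0.517). Among tdT- cells the Sca-1 values were -0.92 for Runx1 (SE 0.33, adjusted p = 0.142) and -0.87 for Vdr (SE 0.27, adjusted p = 0.0854). The groups of that comparison did not overlap for either gene. Both values passed the threshold with voom (adjusted p = 0.0121 and 0.00536). Vdr also passed with DESeq2 (adjusted p = 0.0196), with no low-count filter (adjusted p = 0.0313) and without Sca-1neg tdT+ replicate 3 (adjusted p = 0.047).

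Levels of different genes were compared per kilobase of exon. In Sca-1neg tdT-, Barx2 stood highest at 194 CPM per kb, followed by Lhx2 at 161, Sox9 at 157, Vdr at 155 and Tbx1 at 145. Nfatc1 at 53.1, Foxc1 at 24.1, Tcf7l1 at 14.4, Runx1 at 13.5 and Tcf7l2 at 8.20 CPM per kb followed. In Sca-1+ tdT+ the order on the same scale was led by Vdr at 63.2, Barx2 at 42.9 and Sox9 at 29.3, whereas Lhx2 and Tbx1 were at 7.04 and 7.14 and Tcf7l1 stood last at 0.836 CPM per kb. The strand setting of the counting is not given, so that reads of a gene and of its antisense partner may be mixed. The antisense genes that share exonic bases with Tcf7l1 (179 bases) and Runx1 (106 bases) had 0 to 15 and 1 to 37 counts per library.

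The comparison of tdT+ with tdT- cells within the Sca-1neg gate asks whether cells of the bulge phenotype differ by tdT, the mark of past Cre expression. None of the 10 factors passed the test, and 0 passed it when the library labelled Sca-1neg tdT+ replicate 2 was left out, with values of -0.89 for Tbx1, -0.38 for Tcf7l1, -0.50 for Lhx2, -0.48 for Barx2 and 0.42 for Nfatc1. Of all genes tested, 0.0542% were called higher and 0.00985% lower (11 and 2 of 20307). At an unadjusted p below 0.05 there were 2 of the 10, against 8.33% of all genes. These were Tbx1 (log2 fold change -0.89, SE 0.32, adjusted p = 0.498) and Tcf7l1 (-0.60, SE 0.23, adjusted p = 0.535). Lhx2 had a value of -0.55 (SE 0.32, adjusted p = 0.706) and Barx2 of -0.70 (SE 0.32, adjusted p = 0.601). These 4 factors were lower in every tdT+ library than in any tdT- library, as were 10.9% of all genes tested. Nfatc1 and Foxc1 had the only positive values, 0.15 (SE 0.38) and 0.12 (SE 0.38), and both turned negative without Sca-1neg tdT+ replicate 3 and with voom. The median over the 10 was -0.41, and over all genes -0.03. Liver markers ran high in 2 of the 3 tdT+ and 1 of the 3 tdT- libraries, and the part of this in the values was not tested.

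Within the Sca-1+ gate the groups were defined in the sort by tdT alone. Here 3 of the 10 factors were called lower in tdT+ cells (Tcf7l1, Lhx2 and Tbx1) and none higher. Of all genes tested, 2.34% were called lower and 0.394% higher. These 3 calls held under each of the 22 alternatives, DESeq2 and limma voom included. All 10 values were negative, with a median of -1.20 against 0.04 over all genes. Without overlap between the groups, 7 of the 10 were lower in tdT+ (all but Runx1, Barx2 and Vdr), as were 17.2% of all genes. Within single ages, every one of the 10 ratios was below 1, with log2 ratios of -3.38 to -0.10 at 29 weeks (1 library a group) and -3.72 to -0.71 at 32 weeks.

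Markers of other cell types moved with this comparison. The 12 endothelial markers summed to 3558 and 4019 CPM in Sca-1+ tdT- and to 61.8 to 126 CPM in Sca-1+ tdT+, with none at 0. The 10 T cell markers summed to 152 and 141 CPM in Sca-1+ tdT- and to 388, 1072 and 672 CPM in Sca-1+ tdT+, and the basal keratinocyte markers to 25024 and 27942 CPM against 34358 to 40702 CPM. Their part in the lower levels of the 3 factors was not tested.

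**Figure D2:**
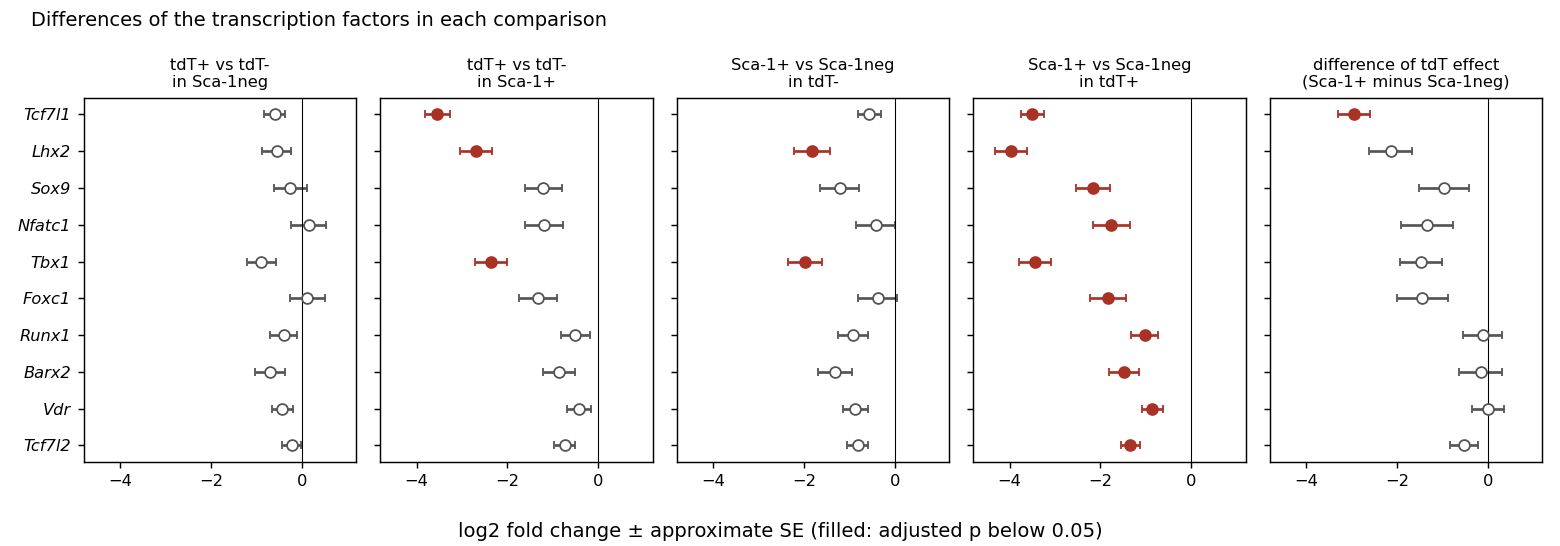
Log2 fold change of each factor in the 4 group comparisons and in the difference between gates, with bars of 1 SE. Filled points passed the adjusted p threshold. All 10 pass for Sca-1+ against Sca-1neg in tdT+ cells, 3 for tdT+ against tdT- in Sca-1+, 2 for Sca-1+ against Sca-1neg in tdT- cells, and Tcf7l1 alone for the difference.

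Across the Sca-1 gates, tdT- cells give the comparison of cells sorted as lacking the tdT mark. Here Lhx2 and Tbx1 were called lower in Sca-1+, 2 of the 10, while 2.06% of all genes tested were called lower and 3.68% higher. All 10 values were negative (median -0.89, over all genes -0.13), and 8 of the 10 factors were lower without overlap between the groups (all but Nfatc1 and Foxc1), as were 26.4% of all genes. The 12 endothelial markers summed to 58.1 to 181 CPM in Sca-1neg tdT- and to 3558 and 4019 CPM in Sca-1+ tdT-, and their part in these values was not tested.

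Among tdT+ cells all 10 factors were called lower in Sca-1+ than in Sca-1neg, and 6.73% of all genes tested were called lower and 5.94% higher. The log2 fold changes ran from -3.97 for Lhx2 to -0.86 for Vdr, with a median of -1.79 against -0.07 over all genes. No factor overlapped between the groups, and 15% of all genes tested were lower without overlap. The library labelled Sca-1neg tdT+ replicate 2 lacks the tracer, and without it all 10 were still called lower, from -4.02 for Lhx2 (adjusted p = 5.27e-04) to -0.98 for Vdr (adjusted p = 0.037). The others were then at -3.72 for Tcf7l1, -3.45 for Tbx1, -2.40 for Sox9, -2.04 for Foxc1, -2.03 for Nfatc1, -1.70 for Barx2, -1.47 for Tcf7l2 and -1.24 for Runx1. Tcf7l1, Lhx2 and Tbx1 were called in each of the 22 alternatives. In the 32-week libraries alone only these 3 passed. T cell markers summed to 41.6 to 77.7 CPM in Sca-1neg tdT+ and 388 to 1072 CPM in Sca-1+ tdT+. Markers of differentiating epidermis summed to 2581 to 4874 and 7671 to 10728 CPM. This epidermal sum is led by Krt10 (group means of 1410 and 4454 CPM) and Krt1 (573 and 3224 CPM). Krtdap, Dsg1a and Ivl also had higher means in Sca-1+ tdT+. Calml3 (611 and 84.8 CPM), Sbsn (437 and 340 CPM) and Lor (13.5 and 6.88 CPM) had lower ones. The part of these markers in the values of the factors was not tested.

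The difference between the tdT effects in the 2 gates was called for 1 of the 10 factors, Tcf7l1, in the lower direction, whereas 0.468% of all genes tested were called lower and 0.0148% higher. For Lhx2 the difference was -2.14 (SE 0.48, adjusted p = 0.0914), for Tbx1 -1.47 (SE 0.47, adjusted p = 0.239). Without Sca-1+ tdT- replicate 1 they were -2.62 (adjusted p = 0.0359) and -2.02 (adjusted p = 0.0401), and leaving out single libraries moved them as far as -1.44 and -0.58. Both passed with DESeq2 (adjusted p = 3.06e-04 and 0.0269), and Lhx2 also with voom (adjusted p = 0.028). The difference was, for Foxc1, -1.44 (SE 0.57, adjusted p = 0.346) and for Nfatc1 -1.34 (SE 0.57, adjusted p = 0.383). The differences for Barx2 (-0.16, SE 0.48), Runx1 (-0.11, SE 0.43) and Vdr (0.01, SE 0.35) were smaller than their errors and changed sign among the alternatives. The comparisons share groups of libraries, so that their values are not independent of each other.

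Profiles over the 11 libraries were compared by the root mean square (RMS) difference of log2 CPM centred on each gene's mean, over 11351 genes with a mean of at least 5 CPM. This is a description, over libraries that share groups. Among the members, Lhx2 and Tbx1 lay at an RMS difference of 0.24, and Tbx1 was the nearest of all genes to Lhx2. Dkk3, a secreted Wnt modulator of the bulge, was the nearest gene to Tbx1 (0.22) and the second to Lhx2 (0.25). Nfatc1 and Foxc1 were each other's nearest gene (0.19). They were followed for Nfatc1 by Efnb2 (0.24) and Krt17 (0.26), a keratin of the follicle, and for Foxc1 by Hspa2 (0.26) and Pir (0.27). Vdr was the nearest gene to Runx1 (0.17). Tcf7l1 had no other factor among its nearest genes, which were Fkbp10 (0.34), Trpv4 (0.38) and Timp2 (0.39). The nearest factor to it, Lhx2, held rank 45. The members farthest apart were Lhx2 and Vdr (1.39).

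The nearest genes to the remaining factors were Phyhip (0.11), Fzd7 (0.18) and Ift81 (0.20) for Sox9, Zfp651 (0.22), Matn2 (0.22) and Nedd9 (0.24) for Barx2, Nfil3 (0.10), Oaz2 (0.13) and Ppp2r1b (0.14) for Vdr, and Camk2n1 (0.17), Zhx3 (0.18) and Rai14 (0.19) for Tcf7l2. Fzd7 is a Wnt receptor. For Sox9 the nearest other factor was Barx2, at rank 41.

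**Figure D3:**
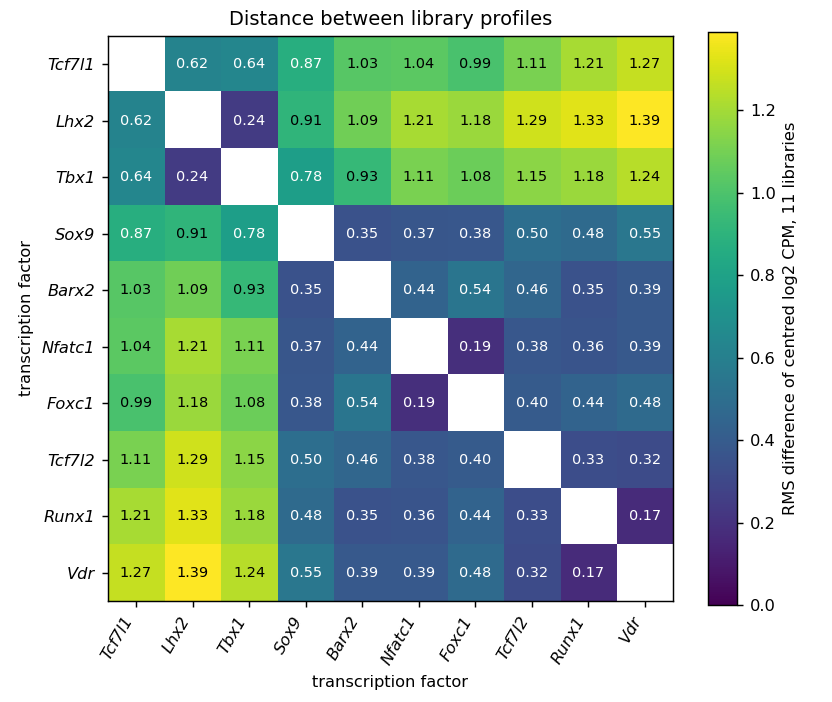
RMS difference of centred log2 CPM between each pair of the 10 factors over 11 libraries (darker is closer). Lhx2 and Tbx1 (0.24), Nfatc1 and Foxc1 (0.19) and Runx1 and Vdr (0.17) form the closest pairs, and Lhx2 and Vdr (1.39) the most distant.

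Related genes were counted beside the factors. As above, 2.34% of all genes tested were called lower and 0.394% higher within Sca-1+. The shares were 2.06% lower and 3.68% higher in Sca-1+ among tdT- cells, and 6.73% lower and 5.94% higher among tdT+ cells. These shares belong to the main fit. Over the alternatives, the genes called in either direction numbered 64 to 1470, 9 to 4260 and 345 to 4652 in these comparisons. List counts from fits with libraries left out are therefore given without a share of all genes from the same fit. Of 20 other bulge genes (surface markers, secreted Wnt and BMP modulators and matrix genes), 0 were called between tdT+ and tdT- in Sca-1neg and 10 were lower in tdT+ within Sca-1+, with a list median of -1.48. Cd34, the sort marker of the bulge, fell by 3.68 on the log2 scale (SE 0.32, adjusted p = 2.96e-04), and Bmp6, a BMP ligand, by 2.78 (SE 0.39, adjusted p = 0.00437). The 6 hair bulge markers summed to 3944 and 4430 CPM in Sca-1+ tdT- and to 3119 to 5108 CPM in Sca-1+ tdT+. That sum is led by Krt15, with group means of 3584 and 4106 CPM. Of the 20 genes, 17 had negative values in this comparison. Between the gates 7 were lower and 1 higher in Sca-1+ among tdT- cells, and 18 were lower and 1 higher among tdT+ cells, Itga6 (CD49f, also a gate marker) being the higher one each time. Among tdT+ cells Ltbp2 gave -5.08 (SE 0.39, adjusted p = 8.52e-05) and Dkk3 -3.73 (SE 0.33, adjusted p = 1.21e-04). When the library labelled Sca-1neg tdT+ replicate 2 was left out, 16 were lower and 1 higher among tdT+ cells, with Dkk3 at -3.78. The difference between gates was called for Cd34 (-3.31, SE 0.41, adjusted p = 0.00695) and Bmp6 (-2.96, SE 0.52, adjusted p = 0.0403), and without that library for Cd34 alone (-3.26, adjusted p = 0.015), with Bmp6 at -3.08 (adjusted p = 0.062).

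Of the Wnt pathway list around Tcf7l1 and Tcf7l2 (18 genes, 17 matched, 16 tested), 1 was lower within Sca-1+ and 1 lower in Sca-1+ among tdT- cells, in each case Lgr5, the Wnt-coupled stem cell receptor (-2.31, SE 0.41, adjusted p = 0.0179, and -2.44, SE 0.45, adjusted p = 0.0155). Among tdT+ cells 2 were higher and 3 lower. Axin2, a feedback target of Wnt signalling, rose by a log2 fold change of 0.93 (SE 0.23, adjusted p = 0.022) and the corepressor gene Tle3 by 0.93 (SE 0.20, adjusted p = 0.0135). Lgr5 (-3.74, SE 0.41, adjusted p = 5.28e-04), Nkd1 (-4.77, SE 0.94, adjusted p = 0.00866) and Tle1 (-0.93, SE 0.24, adjusted p = 0.0271) fell. When the library labelled Sca-1neg tdT+ replicate 2 was left out, Axin2 lost its call (0.81, adjusted p = 0.0727), and the other 4 kept theirs. Without the 3 libraries with liver transcripts, 0 of 17 tested were higher and 4 lower, so that neither Axin2 nor Tle3 was called. The other TCF/LEF genes passed no test. Tcf7 was at 33.6 to 47.4 CPM over the 4 group means, and Lef1 at 1.43 to 5.36 CPM.

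Of 13 partners and cofactors, such as Ldb1 for Lhx2, calcineurin for Nfatc1, Cbfb for Runx1 and Rxra for Vdr, 1 was lower in Sca-1+ among tdT- cells (Lmo4, -1.05, SE 0.20, adjusted p = 0.0133). No partner was called in the tdT comparisons, and 2 were lower within Sca-1+ without the 3 libraries with liver transcripts. Cbfb had log2 fold changes between -0.27 and 0.15 in the 4 group comparisons, and Rxra between -0.54 and 0.26. Of 28 other transcription factors of follicle and epidermis, 7 were higher and 2 lower in Sca-1+ among tdT- cells, and 10 were higher and 7 lower among tdT+ cells. There were 8 higher and 5 lower when the library labelled Sca-1neg tdT+ replicate 2 was left out, and 5 higher and 8 lower without the 3 libraries with liver transcripts. Those that rose included Klf5, an epidermal Kruppel-like factor (2.10, SE 0.26, adjusted p = 0.00323 in tdT-, and 1.82, SE 0.24, adjusted p = 9.66e-04 in tdT+), and Tfap2c (2.03, SE 0.21, adjusted p = 2.39e-04 in tdT+). Gli2, an effector of Hedgehog signalling, fell (-1.81, SE 0.41, adjusted p = 0.0308 in tdT-, and -2.66, SE 0.37, adjusted p = 0.00148 in tdT+). Within Sca-1+ cells 1 of the 28 was called, Dlx3 (-2.17, SE 0.44, adjusted p = 0.0255), and 2 were called lower without the former library and 4 without the 3.

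**Figure D4:**
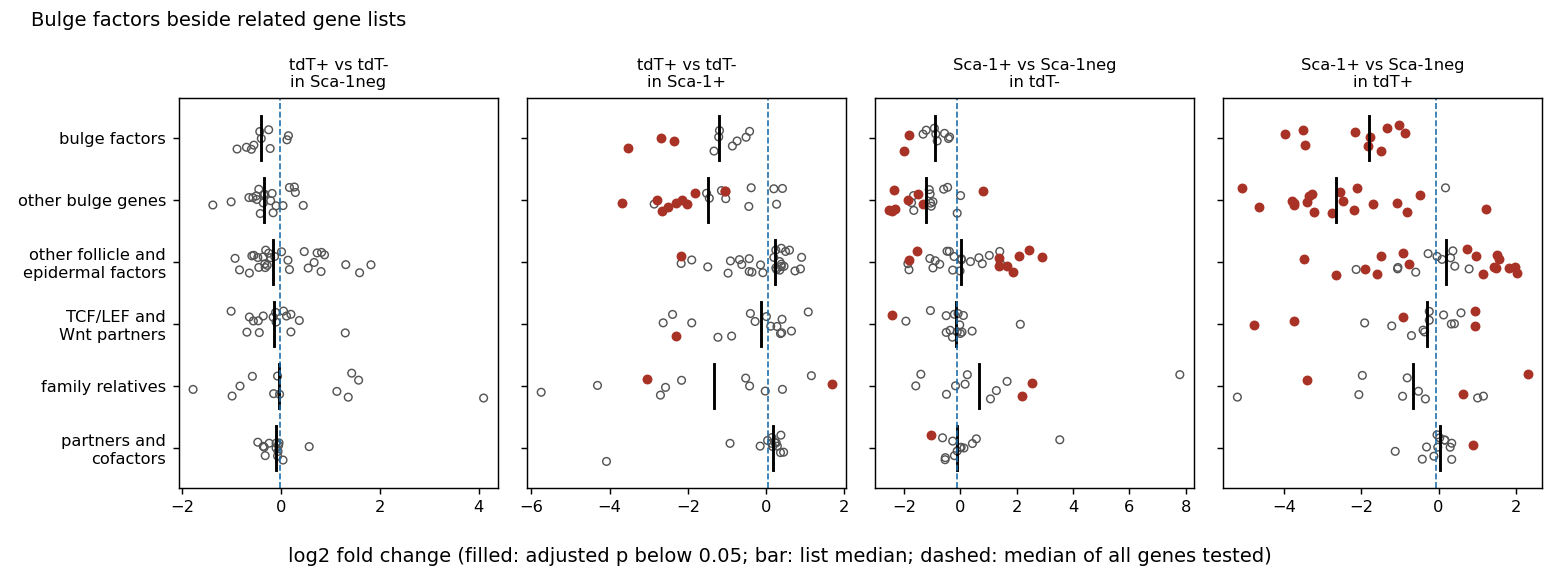
Log2 fold change of each gene in the group comparisons, for the 10 factors and the related gene lists. Filled points passed the adjusted p threshold. Bars are list medians, and the dashed line is the median of all genes tested. The 10 factors and the 20 other bulge genes are called almost only in the lower direction (10 of 10 and 18 of 20 for Sca-1+ against Sca-1neg in tdT+ cells), and the 28 other transcription factors in both directions.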

How the data were processed

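RNA of 11 libraries of sorted mouse epidermal cells was sequenced after TruSeq RNA v2 preparation. The deposited values are raw read counts per Ensembl gene, whole and not normalized. Per the submitters' processing notes, STAR and featureCounts are listed with the build mm10, and bcl2fastq 2.20.0.422, FastQC and DESeq2 1.18.1 are also listed. The sources used here do not give the annotation release, the strand setting or how multiply mapped reads were treated. Symbols came from GENCODE M21 and matched all 55536 Ensembl genes. The additional entry, read as the tdT tracer, stayed out of library sizes and tests.

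Counts were fitted in R 4.3.3 with edgeR 4.0.16 (filterByExpr by group, TMM, glmQLFit with robust estimation, glmQLFTest), with 4 group means over all 11 libraries and 7 residual degrees of freedom. The SE was taken as the size of the log2 fold change over the square root of F, which is approximate. CPM are counts per 1000000 of the TMM-scaled library, except the tracer, which uses the total count. Total counts ran from 17409131 to 46542177. No 2 libraries agreed within sampling noise (smallest chi-square per degree of freedom 51.4 over 55 pairs). The 5 comparisons were run again, with DESeq2 1.42.0, limma 3.58.1 voom, other scalings and filters, age and replicate terms and left-out libraries as alternatives. The tests were checked on simulated data.

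The members, gene lists and tests were chosen with earlier results of these data known. Named genes are all 10 members, up to 4 members of each list with the lowest p where any passed (otherwise the most abundant), and the 3 genes nearest in profile to each member. Tle5 had no matching symbol. A result on 1 gene of the partner list is not reported here.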

Additional observations from a re-analysis of the deposited data

Results flagged for a closer look

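The tdT effect on Tcf7l1 differed between the Sca-1 gates by -2.94 on the log2 scale (SE 0.35, edgeR quasi-likelihood test, adjusted p = 0.00559): tdT+ against tdT- gave -3.54 within Sca-1+ and -0.60 within Sca-1neg. All 3 Sca-1+ tdT+ libraries lay below both Sca-1+ tdT- libraries. Over 21 alternatives the difference ran from -3.36 to -2.64 and was called in 20. In the 32-week libraries alone it was -3.17 (adjusted p = 0.262).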

How the results depend on the processing

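No called value of the 10 factors changed sign under any alternative run. Of 1090 recomputed values of single factors, 1014 kept their side of the threshold and direction or were not called, 35 newly passed and 41 no longer passed. The number of factors called for tdT+ against tdT- in Sca-1+ was 3, and became 7 with DESeq2, 5 with only the groups compared, 6 without the 3 libraries with liver transcripts, and 3 to 5 with single libraries left out (5 without Sca-1neg tdT+ replicate 3). For Sca-1+ against Sca-1neg in tdT- cells it was 2, and became 6 with DESeq2, 8 with voom, 0 in the 32-week libraries alone, and 0 to 4 with single libraries left out (0 without Sca-1neg tdT- replicate 3 or Sca-1+ tdT- replicate 1). For the same contrast in tdT+ cells it was 10, and became 3 in the 32-week libraries alone, 8 with no low-count filter (Nfatc1 and Foxc1 lost), 8 with voom (Runx1 and Vdr lost) and 5 to 10 with single libraries left out (5 without Sca-1+ tdT+ replicate 1, 6 without replicate 2). For the difference between gates it was 1, and became 3 with DESeq2, 2 with voom, 0 at 32 weeks and 1 to 3 with single libraries left out. The cause of these changes was not tested, and the fits with fewer libraries do not separate their number from which libraries were left out. No factor was called for tdT+ against tdT- in Sca-1neg under any alternative. The difference between gates could not be fitted with only the groups compared, which are all 4.

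Whether replicate numbers pair the libraries was not settled by the correlations. Deviations of same-numbered libraries correlated from -0.42 to 0.59, with 7 of 15 pairs over 0.1. Those of differently numbered libraries correlated from -0.60 to 0.51, with fewer pairs over 0.1. With the replicate block, 0, 4, 2, 10 and 1 factors were called in the 5 comparisons, in the order of the text, the gain being Foxc1 for tdT+ against tdT- in Sca-1+ (-1.68, adjusted p = 0.00821). Counts over all genes moved more: 13 (0 to 400 over the alternatives), 556 (64 to 1470), 1166 (9 to 4260), 2572 (345 to 4652) and 98 (0 to 841). Scaling by DESeq2 size factors moved the median of all genes most, from 0.05 to -0.07 for the difference between gates. With 2 libraries in Sca-1+ tdT-, comparisons that use it rest on the spread pooled over groups.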

Other observations

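Among 17 relatives of the factors from the same families, of which 12 were tested, members of the RUNX and NFAT families did not share one direction. Runx3, a Runx gene expressed in T cells and epidermal cells, was at a mean of 30.1 CPM in Sca-1+ tdT+, 9.38 in Sca-1+ tdT-, 6.06 in Sca-1neg tdT+ and 2.04 in Sca-1neg tdT-. It rose in tdT+ against tdT- within Sca-1+ (log2 fold change 1.68, SE 0.37, adjusted p = 0.0371), and in Sca-1+ against Sca-1neg in tdT- (2.2, SE 0.35, adjusted p = 0.00741) and tdT+ cells (2.31, SE 0.33, adjusted p = 0.0014), all by the edgeR quasi-likelihood test. T cell markers ran highest in Sca-1+ tdT+, at 388 to 1072 CPM in sum, and their part in this was not tested. Nfatc4 fell within Sca-1+ (-3.05, SE 0.60, adjusted p = 0.0224) and in Sca-1+ against Sca-1neg among tdT+ cells (-3.39, SE 0.57, adjusted p = 0.0037). Nfatc2 rose in Sca-1+ against Sca-1neg among tdT- cells (2.54, SE 0.39, adjusted p = 0.00646), and Nfatc3 among tdT+ cells (0.63, SE 0.13, adjusted p = 0.0115).

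Of 5 genes known as targets of the factors or of the vitamin D axis, 4 were tested. Cyp27b1, which makes active vitamin D, fell in Sca-1+ against Sca-1neg among tdT- cells (-2.34, SE 0.56, adjusted p = 0.0346), and Fgf18, a growth factor of the resting follicle, among tdT+ cells (-3.78, SE 0.67, adjusted p = 0.00467). Cdh1, a target of Tcf7l1 repression, was at group means of 614 to 1184 CPM and passed no test. Cyp24a1, the classic target of Vdr, had group means of at most 0.166 CPM and did not pass the low-count filter.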
